A study of Mus musculus with 12 samples.

Results

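The 33 genes described here encode the enzymes that make cholesterol and fatty acids, the regulators that switch them on, and carriers that move sterols. They were taken by symbol from a list of members, and all 33 were found among the 20201 genes of the table. All 33 also passed the minimum mean of 10 normalized counts over the 12 libraries that was required for testing, as did 12553 genes in all. They comprise 7 enzymes of the mevalonate pathway, 11 enzymes from squalene synthesis to cholesterol, 5 regulators of sterol sensing, 4 genes of sterol transport and efflux, and 6 genes of fatty acid synthesis.

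The RNA came from mouse myotubes, fused muscle cells with many nuclei that arise from myoblasts in culture. All libraries derive from primary myoblasts of Bmal1-floxed mice, kept in medium with horse serum. Knockout libraries are labelled Bmal1 knockout with 1% oxygen, and wildtype libraries are labelled wildtype with 21% oxygen. The deletion was made in culture by an adenovirus with Cre given for 48 hours, wildtype myotubes received an empty virus, and both then spent 6 hours in their oxygen level. The wildtype cells therefore also carry the floxed alleles and also met a virus. The text on the study's design names both oxygen levels without tying either to a virus, whereas in the labels genotype and oxygen go together, so their effects cannot be told apart over the labels. Each label has 6 libraries, and their titles fall in 4 runs of 3 numbers. Knockout replicates 4 to 6 are Myotube10 to Myotube12 and wildtype replicates 4 to 6 are Myotube7 to Myotube9, together called the higher-numbered set. Knockout replicates 1 to 3 are Myotube4 to Myotube6 and wildtype replicates 1 to 3 are Myotube1 to Myotube3, the lower-numbered set. No condition is inferred for either set. No culture, animal or batch is named for any library, so the p-values rest on the scatter among libraries, and that scatter may be technical only.

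Cells build cholesterol from acetyl-CoA. The mevalonate pathway makes isoprenoid units, which are joined to squalene, and squalene is folded into lanosterol and trimmed to cholesterol. The genes of these synthesis steps are controlled together by SREBP transcription factors. These factors are held in the endoplasmic reticulum with SCAP and INSIG proteins while sterols are plentiful and are released to the nucleus when sterols are scarce. SREBP1 acts mainly on fatty acid genes and SREBP2 mainly on cholesterol genes. Several steps, among them lanosterol demethylation and fatty acid desaturation, use molecular oxygen. Muscle uses these products for its membranes, including the internal membranes of a growing myotube.

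The promoters of 6 members are shown because 5 of them belong to enzymes whose transcripts rose in knockout libraries, and the other, Insig1, to an SREBP target whose transcript did not pass the test. Other enzymes whose transcripts rose, among them Pmvk, Mvd and Lss, are not shown. Each is the 180 bases before the start site in RefSeq on GRCm38.p6, written 5′ to 3′ along the gene. Capitals mark 3 motifs: the core of a sterol regulatory element (TCACNCCAC, bound by SREBP), the CCAAT box (CCAAT, read on either strand, so also as ATTGG, bound by NF-Y, a partner of SREBP), and the E-box CACGTG, which CLOCK and BMAL1 bind.
Hmgcs1, chr13:119690171-119690350, plus strand: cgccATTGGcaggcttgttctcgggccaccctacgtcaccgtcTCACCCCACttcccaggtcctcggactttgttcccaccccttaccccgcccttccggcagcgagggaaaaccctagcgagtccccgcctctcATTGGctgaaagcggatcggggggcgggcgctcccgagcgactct
Idi1, chr13:8885426-8885605, plus strand: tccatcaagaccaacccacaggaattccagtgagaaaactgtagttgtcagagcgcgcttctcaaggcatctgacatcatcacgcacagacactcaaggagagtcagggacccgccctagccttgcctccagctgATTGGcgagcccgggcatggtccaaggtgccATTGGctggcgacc
Cyp51, chr5:4104698-4104877, minus strand: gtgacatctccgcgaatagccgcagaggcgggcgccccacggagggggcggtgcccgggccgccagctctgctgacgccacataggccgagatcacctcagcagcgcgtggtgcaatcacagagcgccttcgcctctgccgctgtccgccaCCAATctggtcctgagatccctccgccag
Nsdhl, chrX:72918341-72918520, plus strand: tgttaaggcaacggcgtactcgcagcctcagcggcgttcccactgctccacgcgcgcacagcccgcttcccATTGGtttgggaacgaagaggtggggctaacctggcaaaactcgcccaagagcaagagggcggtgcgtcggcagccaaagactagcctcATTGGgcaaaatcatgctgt
Hsd17b7, chr1:169969206-169969385, minus strand: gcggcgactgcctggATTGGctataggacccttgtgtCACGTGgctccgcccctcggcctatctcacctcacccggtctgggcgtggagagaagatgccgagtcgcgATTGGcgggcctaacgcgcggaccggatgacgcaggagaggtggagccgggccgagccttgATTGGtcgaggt
Insig1, chr5:28071232-28071411, plus strand: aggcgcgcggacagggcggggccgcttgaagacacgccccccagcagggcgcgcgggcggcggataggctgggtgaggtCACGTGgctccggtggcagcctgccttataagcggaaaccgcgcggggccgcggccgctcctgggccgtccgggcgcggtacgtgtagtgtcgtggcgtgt

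Promoter windows from 250 bases before to 50 after the start were given for 25 of the 33 members, with more than 1 start for some. A CCAAT box on either strand was present in 20 of these 25 genes (80%), against 11096 of 27025 genes in the table (41.1%). The sterol regulatory element core was found in Hmgcs1 only among the 25, where it lay 137 to 129 bases before the start, and in 1.44% of all genes. The E-box CACGTG was present in 6 members (24%), namely Abca1, Dhcr7, Hsd17b7, Insig1, Sc5d and Scap, and in 8.09% of all genes. The core of a hypoxia response element, ACGTG, which every CACGTG also contains, was present in 8 members (32%) and in 21.8% of all genes. These are matches of letters in 1 window, not measured sites, and none was tested.

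**Figure D1:**
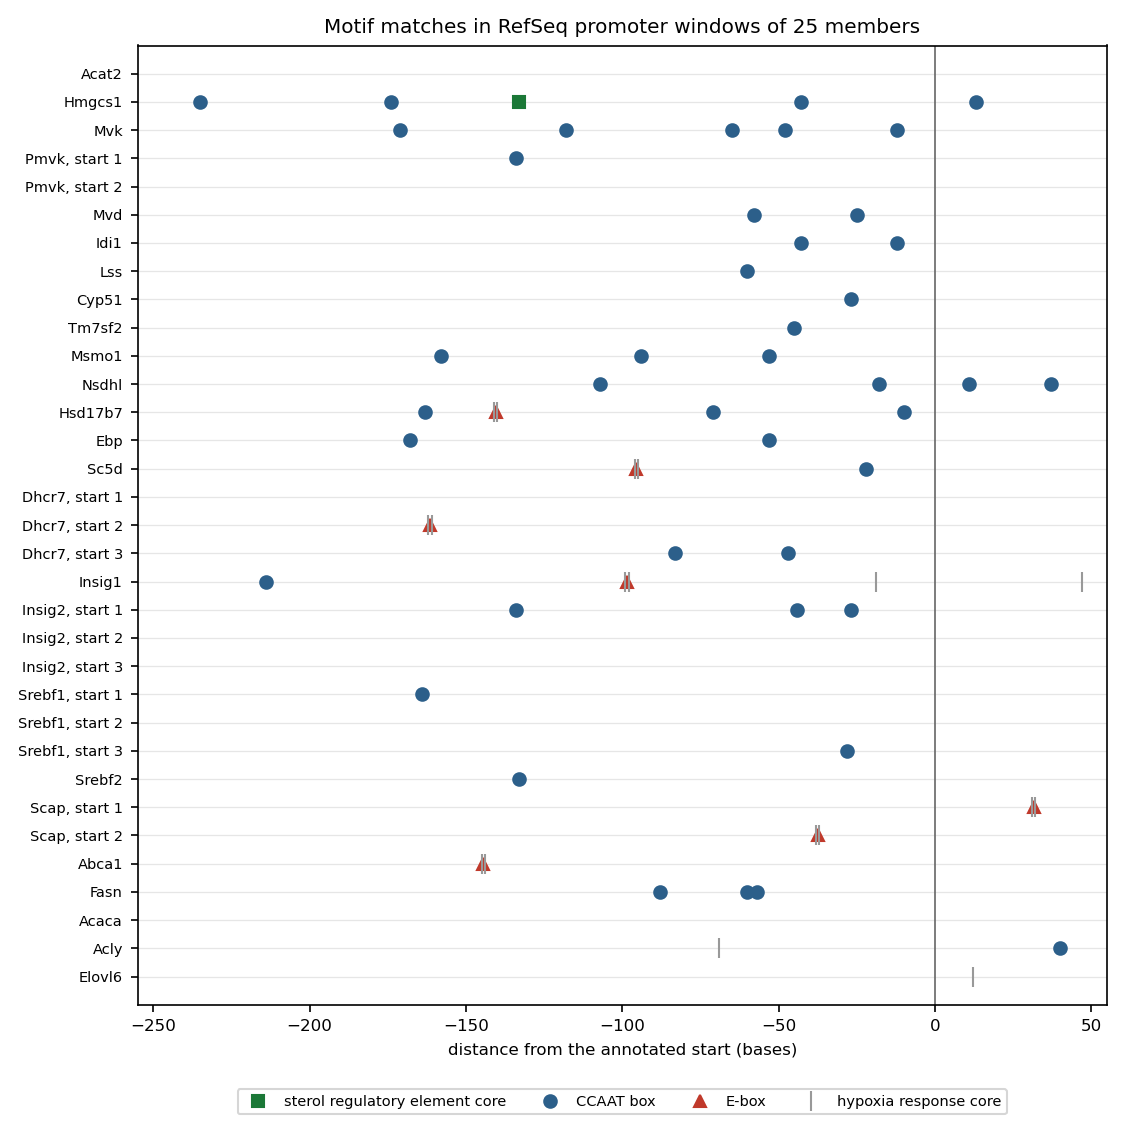
Positions of the 4 motifs (symbols) in the promoter windows of 25 members, 1 row per annotated start. The x axis gives the distance from the start in bases. CCAAT boxes appear in 20 members, most of them in the stretch before the start, E-boxes in 6 members and the sterol regulatory element core in Hmgcs1.

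The libraries held 6376584 to 12463339 recovered reads, of which 8 very abundant genes took 49.2% to 65.4%. Arntl, which encodes BMAL1, lay at 41.7 to 48.6 normalized counts in knockout libraries and at 133 to 179 in wildtype libraries. Genes known to be induced by hypoxia did not follow the oxygen label. Egln3, which encodes an oxygen-sensing prolyl hydroxylase, had 2036 to 2143 normalized counts in knockout and 2199 to 2258 in wildtype libraries of the higher-numbered set, against 194 to 262 in knockout and 241 to 270 in wildtype libraries of the lower-numbered set, and Slc2a1, Ankrd37 and Pdk1 split the same way. Each comparison of knockout with wildtype is therefore given over all 12 libraries and within each set of 6. Wildtype replicate 2 stood apart, with 29.6% of genes at 0 against 13.0% to 21.9% in the other libraries.

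More of these genes were higher in knockout than in wildtype myotubes, and none was lower by the test used throughout (limma, adjusted p below 0.05). Over all 12 libraries 10 of 33 members rose and 0 fell, while among all tested genes 10.2% rose and 9.07% fell. The members were chosen with earlier results of these data known, so such counts are no independent comparison. In the higher-numbered set 12 rose and 0 fell, against 8.84% and 7.64% of all genes, and in the lower-numbered set 10 rose and 0 fell, against 10.8% and 7.97%. The median log2 difference of the members, knockout minus wildtype, was 0.30 over all libraries, with 26 of 33 above 0, and that of all tested genes was -0.0015. Every knockout value exceeded every wildtype value for 8 members over all libraries (7.07% of all genes), and for 0 members was every knockout value lower (5.38%). In the higher-numbered set the counts without overlap were 19 higher (21% of all genes) and 1 lower, Npc1 (19.2%), and in the lower-numbered set 16 higher (18%) and 1 lower, Acaca (16.5%). With the number set as a term in the fit, 20 members rose over all libraries and 0 fell, while 15.9% of all genes rose and 14.2% fell. With quantile normalization the calls of Hmgcs1, Cyp51 and Acly over all libraries ended. In the higher-numbered set it ended those of Sqle, Cyp51, Srebf2, Scd1, Scd2 and Acly, and in the lower-numbered set those of Hmgcs1, Scd1, Scd2 and Acly. When the 8 abundant genes were left out of the scaling, the median of all genes moved to -0.165. Then 3 members rose (Idi1, Nsdhl and Scd1) and 2 fell (Insig1 and Npc1). The median of the members relative to that of all genes stayed at 0.30. This scaling shifts every gene by nearly the same amount, so that relative median could hardly change and is no check of the result.

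**Figure D2:**
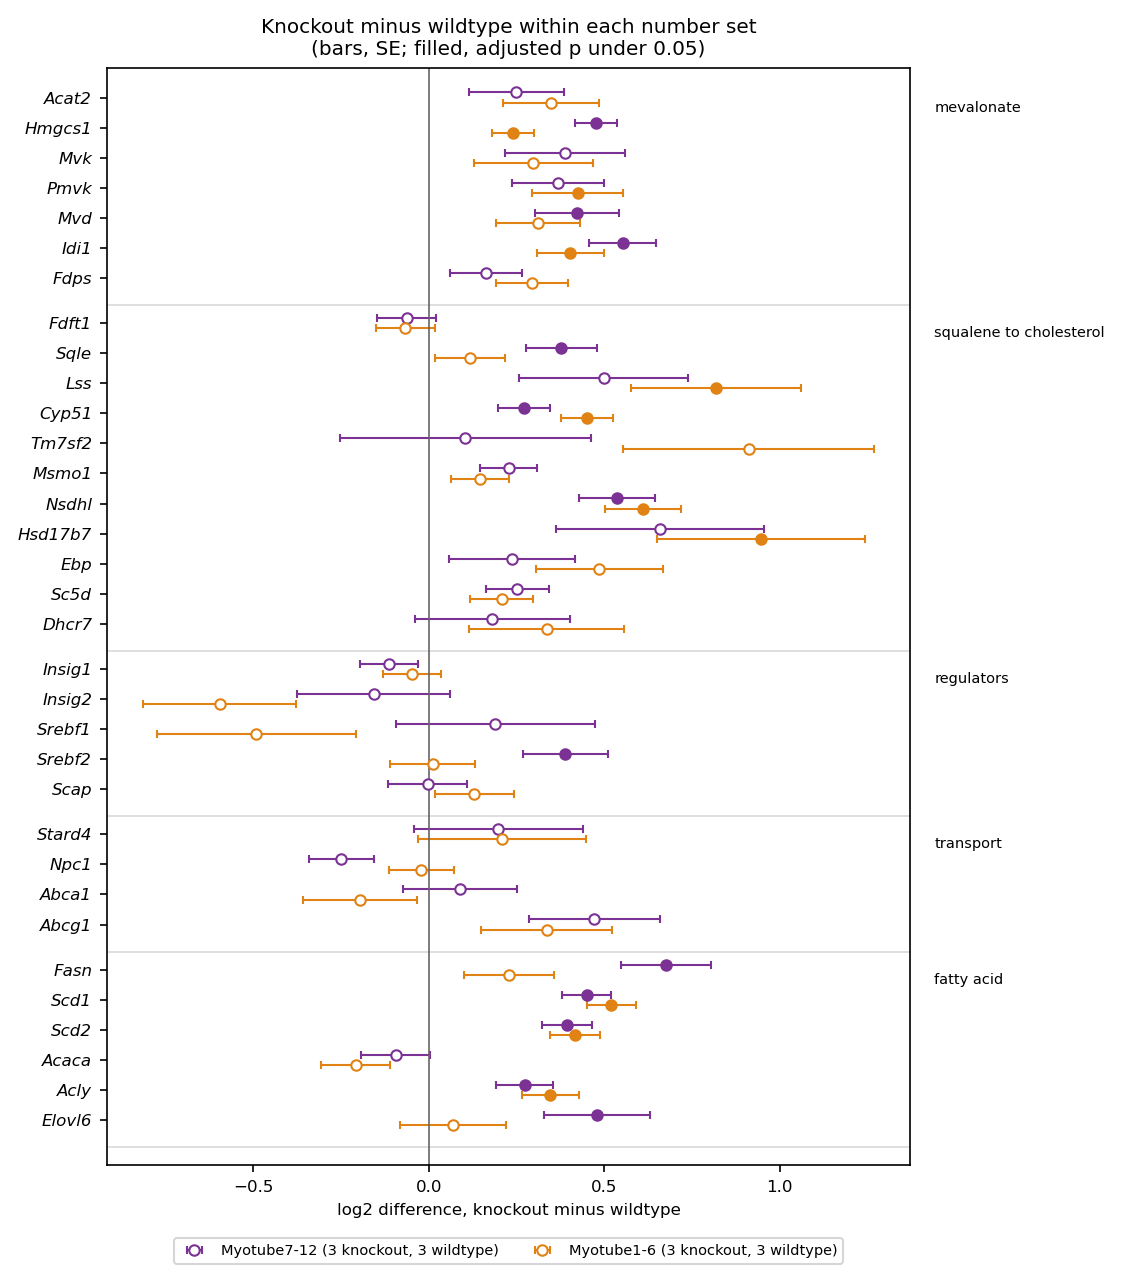
Log2 difference, knockout minus wildtype, for the 33 members (x axis) within Myotube7 to Myotube12 and within Myotube1 to Myotube6, with 3 libraries a label in each. Points are estimates, bars their SE, and filled points passed the test. Of the 18 sterol pathway enzymes, all but Fdft1 lie right of 0 in both sets, whereas regulators and transport genes lie on both sides.

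The difference between the knockout effects of both sets was tested directly. No member passed (limma with Benjamini-Hochberg adjustment), and 1 of 12553 genes did (0.00797%), the mitochondrial gene mt-Co2. At an unadjusted p below 0.05 there were 3 members (9.09%), namely Hmgcs1, Srebf2 and Fasn, and 1070 of all genes (8.52%). edgeR called 0 genes for this difference, and DESeq2 called 16 genes as higher and 13 as lower, 0 of them members. A member called in 1 set and not in the other is therefore not shown to differ between the sets.

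Of the 18 enzymes of the sterol pathway, 8 rose over all libraries, 6 in the higher-numbered and 7 in the lower-numbered set. Of all tested genes 10.2%, 8.84% and 10.8% rose in these comparisons, with median log2 differences of -0.0015, 0.0015 and -0.0043. With the number set as a term 15 of 18 rose over all libraries, all but Fdft1, Tm7sf2 and Dhcr7, beside 15.9% of all genes. With the 8 abundant genes left out only Idi1 and Nsdhl of the 18 rose over all libraries. In that setting 613 of 12545 tested genes rose and 2200 fell. A difference above 0 was found for 17 of 18 in each of the 3 comparisons, for 15 to 17 with the 8 abundant genes left out and for 16 or 17 with quantile normalization. Their summed normalized counts ran between 6497 and 7424 in knockout libraries and between 5086 and 5822 in wildtype libraries, with no overlap. These sums rest on the scaling of the deposited counts and were not recomputed with the 8 abundant genes left out. The knockout mean of this sum was 1.26 times the wildtype mean in the higher-numbered set and 1.25 times in the lower-numbered set. In bulk RNA, more cells of a type and more RNA per cell cannot be told apart.

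In the mevalonate pathway 4 of 7 enzymes rose over all libraries, namely Hmgcs1, Pmvk, Mvd and Idi1, beside 10.2% of all tested genes. Hmgcs1 (ENSMUSG00000093930, chromosome 13, 119690379 to 119708260, mm10) encodes HMG-CoA synthase, which joins acetyl-CoA units at the entry of the pathway. Its normalized counts in replicates 1 to 6 were 1488, 1524, 1442, 1394, 1344 and 1404 in knockout libraries and 1313, 1267, 1194, 945, 1013 and 1016 in wildtype libraries. Every knockout library lay above every wildtype library, and wildtype replicates 4 to 6 were the lowest. The log2 difference was 0.36 (SE 0.08, adjusted p = 0.00909) over all libraries, 0.48 (SE 0.06, adjusted p = 0.000246) in the higher-numbered set and 0.24 (SE 0.06, adjusted p = 0.0149) in the lower-numbered set. With quantile normalization the difference in the lower-numbered set was -0.01 (adjusted p = 0.938). Among members this gene had the lowest unadjusted p for the difference between the sets, at 0.24 on the log2 scale (SE 0.08, adjusted p = 0.552).

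Idi1 (chromosome 13, 8885501 to 8892451) encodes the isomerase that interconverts the isoprenoid units. It had 518, 474, 450, 443, 439 and 457 normalized counts in knockout replicates 1 to 6, against 324, 418, 352, 305, 296 and 310 in wildtype replicates 1 to 6. No values overlapped, and the closest were knockout replicate 5 and wildtype replicate 2. The log2 difference of Idi1 was 0.48 (SE 0.09, adjusted p = 0.00186), with 0.55 (SE 0.10, adjusted p = 0.00184) in the higher-numbered and 0.40 (SE 0.10, adjusted p = 0.0109) in the lower-numbered set. It stayed past the threshold over all libraries in each of the 22 alternative settings.

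Pmvk and Mvd encode the kinase and the decarboxylase between mevalonate and the first isoprenoid unit. Pmvk had 133, 123, 136, 121, 140 and 132 normalized counts in knockout replicates 1 to 6, against 109, 96.0, 86.9, 112, 89.8 and 102 in wildtype replicates 1 to 6. Mvd had 116, 117, 108, 111, 114 and 112 in knockout replicates and 97.7, 80.5, 97.2, 81.1, 86.3 and 83.5 in wildtype replicates. Both genes were low in counts but separated the labels without overlap. The log2 differences were 0.40 for Pmvk (SE 0.09, adjusted p = 0.00863) and 0.37 for Mvd (SE 0.09, adjusted p = 0.00995). Within sets, Pmvk passed in the lower-numbered set and Mvd in the higher-numbered set. The remaining members were Acat2, which condenses acetyl-CoA, the mevalonate kinase gene Mvk and the farnesyl diphosphate synthase gene Fdps. Their differences were 0.30 (SE 0.13), 0.34 (SE 0.17) and 0.23 (SE 0.11), and none passed over all libraries. With the number set as a term each did, at limma adjusted p-values of 0.0286 for Acat2, 0.0406 for Mvk and 0.0296 for Fdps. A predicted gene, Gm43738, shares 26.7% of the exon bases of Fdps on the same strand, so the level of Fdps is uncertain. Within the lower-numbered set the call of Hmgcs1 ended without knockout replicate 2 (adjusted p = 0.0552) and that of Idi1 without knockout replicate 1 (adjusted p = 0.0538). That of Pmvk ended without any 1 of knockout replicates 1, 2, 3 and 6 and wildtype replicates 2, 3 and 6 (adjusted p up to 0.113). In the higher-numbered set the call of Mvd ended without any 1 of knockout or wildtype replicates 4 to 6 (adjusted p up to 0.101).

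**Figure D3:**
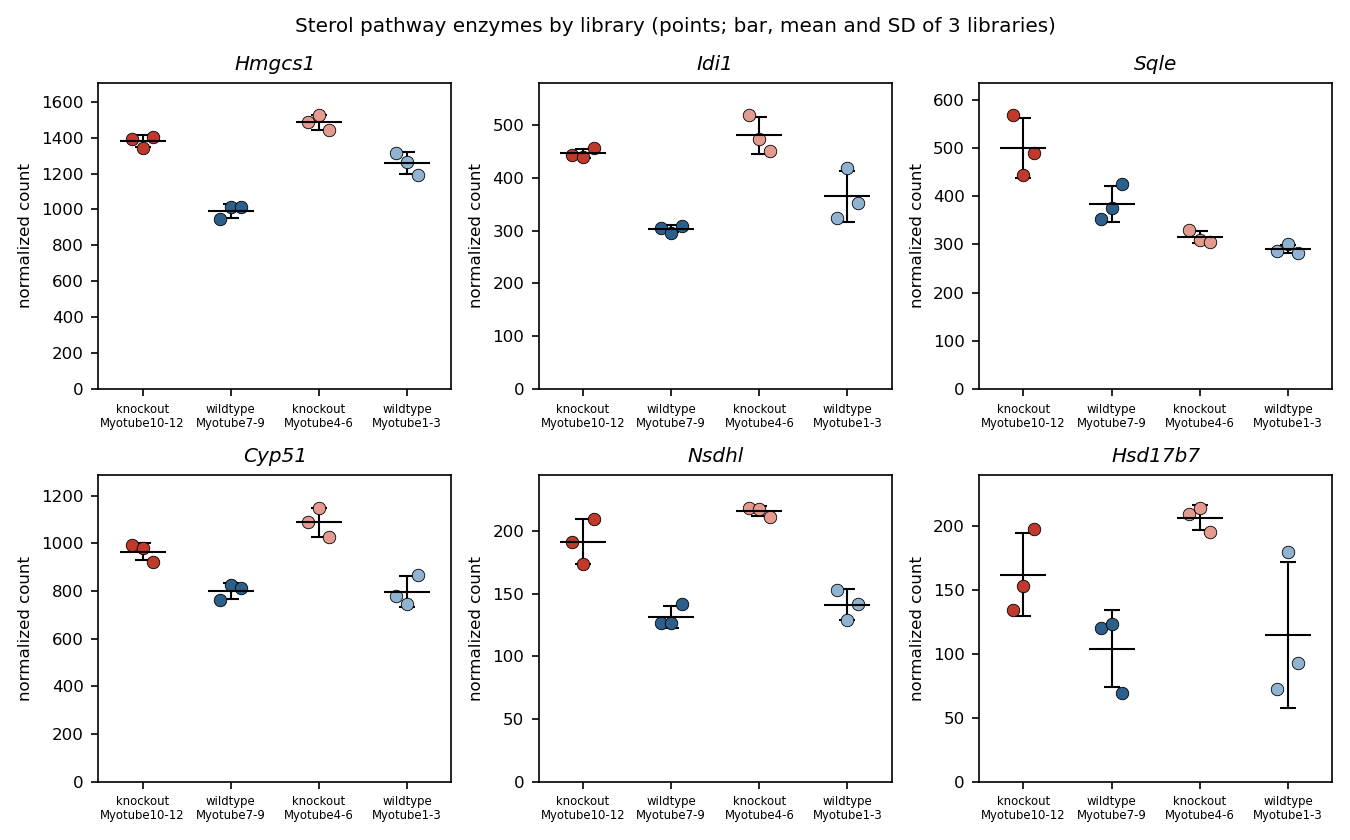
Normalized counts (y axis) of 6 sterol pathway enzymes in the 4 runs of 3 libraries, points for libraries, bars for mean and SD. All 6 genes separate knockout from wildtype within both sets, and Hmgcs1, Idi1, Cyp51 and Nsdhl also over all libraries. Sqle is higher in both higher-numbered runs, and 1 wildtype library of Hsd17b7 (replicate 2) lies at 180.

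From squalene to cholesterol, 4 of 11 enzymes rose over all libraries, namely Lss, Cyp51, Nsdhl and Hsd17b7, beside 10.2% of all tested genes. Nsdhl (ENSMUSG00000031349, chromosome X, 72918557 to 72958514) encodes a dehydrogenase that takes part in removing methyl groups from the sterol ring. It had 218, 218, 211, 191, 173 and 210 normalized counts in knockout replicates 1 to 6, against 153, 129, 142, 126, 127 and 141 in wildtype replicates 1 to 6. The groups did not overlap. The log2 difference was 0.57 (SE 0.09, adjusted p = 0.00047), with 0.54 (SE 0.11) in the higher-numbered and 0.61 (SE 0.11) in the lower-numbered set. Nsdhl passed the test in all 22 alternative settings over all libraries and in all 21 within each set.

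Cyp51 (chromosome 5, 4081145 to 4104746) encodes the oxygen-dependent lanosterol demethylase. Its normalized counts were 1089, 1148, 1027, 990, 979 and 923 in knockout replicates 1 to 6 and 777, 745, 868, 760, 825 and 812 in wildtype replicates 1 to 6. Every knockout library lay above every wildtype library. The log2 difference was 0.36 (SE 0.07, adjusted p = 0.00186). It was 0.27 (SE 0.07, adjusted p = 0.025) in the higher-numbered set and 0.45 (SE 0.07, adjusted p = 0.00113) in the lower-numbered set. In the higher-numbered set the call ended without any 1 of knockout replicates 4 and 5 and wildtype replicates 4 and 6 (adjusted p up to 0.106).

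Hsd17b7 and Lss had the largest differences among the called members and also wide spreads. Hsd17b7 encodes a sterol ketone reductase that works beside NSDHL. It had 209, 214, 195, 135, 153 and 197 normalized counts in knockout replicates 1 to 6, against 72.2, 180, 92.5, 120, 123 and 69.2 in wildtype replicates 1 to 6. Only wildtype replicate 2 reached into the knockout range. The log2 difference was 0.80 (SE 0.22, adjusted p = 0.0187). Lss encodes the cyclase that folds oxidised squalene into lanosterol. Its values were 492, 313, 293, 433, 302 and 299 in knockout replicates and 224, 194, 189, 251, 168 and 328 in wildtype replicates, with wildtype replicate 6 inside the knockout range. The log2 difference of Lss was 0.66 (SE 0.17, adjusted p = 0.0173). Both passed in the lower-numbered set, at 0.95 (SE 0.30) for Hsd17b7 and 0.82 (SE 0.24) for Lss. Those calls ended without any 1 of 9 libraries for Hsd17b7 (knockout replicates 1 to 5 and wildtype replicates 1, 3, 4 and 5, adjusted p up to 0.128). For Lss the 4 libraries were knockout replicates 1 and 2 and wildtype replicates 2 and 3 (adjusted p up to 0.135).

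Sqle encodes squalene epoxidase, an oxygen-dependent enzyme and a control point of the pathway, and it followed the number sets as well as the labels. It had 567, 444 and 490 normalized counts in knockout replicates 4 to 6, against 353, 375 and 425 in wildtype replicates 4 to 6. In the lower-numbered set it had 330, 310 and 305 in knockout replicates 1 to 3 and 287, 300 and 283 in wildtype replicates 1 to 3. Within each set knockout lay above wildtype without overlap, and all 6 libraries of the higher-numbered set lay above those of the lower-numbered set. The log2 difference of Sqle, knockout minus wildtype, was 0.38 (SE 0.10, adjusted p = 0.0217) in the higher-numbered set and 0.12 (SE 0.10, adjusted p = 0.45) in the lower-numbered set. The call in the higher-numbered set ended without any 1 of knockout replicates 4 and 6 and wildtype replicates 4 and 5 (adjusted p up to 0.101). Over all libraries Sqle passed with the number set as a term (adjusted p = 0.028).

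The other 6 enzymes of this stretch did not pass in any of the 3 comparisons. With the number set as a term Msmo1 (adjusted p = 0.0266), Ebp (adjusted p = 0.0466) and Sc5d (adjusted p = 0.0141) passed over all libraries. Msmo1, the methyl sterol oxidase gene, came closest, with 518 ± 23.1 normalized counts in knockout and 455 ± 30.3 in wildtype libraries (SD, n = 6 each; limma adjusted p = 0.0568). Ebp, Sc5d and Dhcr7, which encode the isomerase, desaturase and reductase of late steps, had log2 differences of 0.36 (SE 0.13), 0.23 (SE 0.09) and 0.26 (SE 0.20). Tm7sf2, a sterol reductase gene, had 0.51 (SE 0.28) at 20.3 to 54.6 normalized counts in knockout and 16.7 to 39.6 in wildtype libraries, and shares 12.1% of its exon bases with Vps51. Fdft1, the squalene synthase gene, was the only sterol enzyme with a difference below 0, at -0.07 (SE 0.07). It lay between 277 and 327 normalized counts in knockout and between 299 and 330 in wildtype libraries. Ctsb, read from the opposite strand at a mean of 2730 normalized counts, covers 18.3% of the exon bases of Fdft1, and whether strand was used in counting is not stated.

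Among the regulators 0 of 5 passed over all libraries, 1 in the higher-numbered set (Srebf2) and 0 in the lower-numbered set. Insig1, an SREBP target whose product holds SCAP in the endoplasmic reticulum, had 950, 1019, 849, 1031, 955 and 939 normalized counts in knockout replicates 1 to 6, against 1022, 875, 1015, 1070, 1028 and 1068 in wildtype replicates 1 to 6. The groups overlapped, and the log2 difference was -0.08 (SE 0.07, adjusted p = 0.466). With the 8 abundant genes left out Insig1 fell by 0.25 (adjusted p = 0.0167), and it also fell with quantile normalization. Insig2, which does the same task, had 118.8 ± 39.4 in knockout and 152 ± 36.9 in wildtype libraries (SD, n = 6 each). With the 8 abundant genes left out Insig2 passed in the lower-numbered set, at -0.77 (limma adjusted p = 0.022).

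Srebf2 encodes SREBP2. It had 636, 597 and 624.6 normalized counts in knockout replicates 4 to 6, against 420, 519 and 483 in wildtype replicates 4 to 6, without overlap, a log2 difference of 0.39 (SE 0.12, adjusted p = 0.0458). In the lower-numbered set it had 508, 449 and 524 in knockout replicates 1 to 3 and 446, 602 and 435 in wildtype replicates 1 to 3, which overlapped, and the difference was 0.01 (SE 0.12). The call in the higher-numbered set ended without any 1 of 9 libraries, all but wildtype replicates 1, 2 and 3 (adjusted p up to 0.184). Srebf1 encodes SREBP1. It had 448, 376, 455, 725, 696 and 699 in knockout replicates 1 to 6 and 407, 1118, 469, 668, 724 and 492 in wildtype replicates 1 to 6. Wildtype replicate 2 was far above all others, and the difference was -0.15 (SE 0.24, adjusted p = 0.729). Scap, the gene of the escort protein of SREBP, had 219 ± 31.3 in knockout and 208 ± 12.6 in wildtype libraries (SD, n = 6 each).

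None of the 4 transport genes passed between labels in any of the 3 comparisons, although Abcg1 did over all libraries with the number set as a term, at 0.40 (adjusted p = 0.0301). Npc1, whose product exports cholesterol from lysosomes, had 365 ± 26.2 normalized counts in knockout and 403 ± 53.9 in wildtype libraries (SD, n = 6 each), a log2 difference of -0.14 (SE 0.09, adjusted p = 0.352). With the 8 abundant genes left out Npc1 fell by 0.30 (adjusted p = 0.0165), and with quantile normalization it fell in the higher-numbered set. Abca1, a cholesterol efflux pump, had 264.5 ± 45.9 in knockout and 273 ± 36.1 in wildtype libraries. Stard4, a cytosolic sterol carrier, and Abcg1, a second efflux pump, varied mainly between the number sets.

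In fatty acid synthesis 2 of 6 genes rose over all libraries, 5 in the higher-numbered set and 3 in the lower-numbered set. Of all tested genes 10.2%, 8.84% and 10.8% rose in these comparisons. Scd1 (ENSMUSG00000037071, chromosome 19, 44394455 to 44407879) encodes a stearoyl-CoA desaturase, which makes monounsaturated fatty acids with oxygen. It had 2799, 2605, 2544, 2710, 2574 and 2658 normalized counts in knockout replicates 1 to 6, against 1962, 1838, 1743, 1885, 1823 and 2114 in wildtype replicates 1 to 6. The groups were far apart, and the number sets overlapped within each label. The log2 difference was 0.49 (SE 0.06, adjusted p = 6.24e-05), the smallest adjusted p among members. It was 0.45 (SE 0.07) in the higher-numbered and 0.52 (SE 0.07) in the lower-numbered set, and over all libraries it passed in all 22 alternatives. With quantile normalization the call of Scd1 ended in the higher-numbered set (adjusted p = 0.0676) and in the lower-numbered set (adjusted p = 0.083). Acly encodes ATP citrate lyase, which supplies cytosolic acetyl-CoA. It had 1359, 1260, 1198, 1131, 1049 and 1258 normalized counts in knockout replicates and 1027, 935, 1038, 972, 978 and 889 in wildtype replicates, without overlap. The log2 difference of Acly was 0.31 (SE 0.07, adjusted p = 0.00719).

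Scd2, a close relative of Scd1, was the most abundant member. It had 10474, 10713 and 10781 normalized counts in knockout replicates 4 to 6, against 7865, 7926 and 8551 in wildtype replicates 4 to 6. In the lower-numbered set it had 6057, 5690 and 5671 in knockout replicates 1 to 3 and 4371, 4807 and 3908 in wildtype replicates 1 to 3. All 4 runs of libraries were apart. Knockout exceeded wildtype by 0.39 on the log2 scale in the higher-numbered set (SE 0.07, adjusted p = 0.00268) and by 0.42 in the lower-numbered set (SE 0.07, adjusted p = 0.00153). With quantile normalization both calls of Scd2 ended, at an adjusted p of 0.448 in the higher-numbered set and at a difference of -0.03 (adjusted p = 0.842) in the lower-numbered set. Over all 12 libraries, where both sets are pooled, the difference was 0.41 with an SE of 0.25 (adjusted p = 0.296), and it passed with the number set as a term (adjusted p = 4.93e-05). The counter shares reads between near-identical genes by estimate, so a part of the reads of either desaturase may belong to the other.

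Fasn, the fatty acid synthase gene, had 1248, 1168 and 1175 normalized counts in knockout replicates 4 to 6, against 598, 789 and 888 in wildtype replicates 4 to 6. It had 1680, 1390 and 1534 in knockout replicates 1 to 3 and 1284, 1175 and 1476 in wildtype replicates 1 to 3. The labels were apart in the higher-numbered set, with a log2 difference of 0.68 (SE 0.13, adjusted p = 0.00355), and overlapped in the lower-numbered set, with 0.23 (SE 0.13, adjusted p = 0.24). Fasn passed over all libraries with the number set as a term (adjusted p = 0.00602). Elovl6, which lengthens saturated fatty acids, had 99.4, 103 and 79.2 in knockout replicates 4 to 6 and 64.3, 76.4 and 60.0 in wildtype replicates 4 to 6, a log2 difference of 0.48 (SE 0.15, adjusted p = 0.0468). Acaca encodes acetyl-CoA carboxylase, the committed step, and differed in sign from the other 5 genes, at -0.15 (SE 0.11, adjusted p = 0.402). Within sets the call of Acly ended without knockout replicate 1 in the lower-numbered set (adjusted p = 0.052), and in the higher-numbered set without any 1 of knockout replicates 2, 4 and 6 and wildtype replicates 4 to 6 (adjusted p up to 0.149). The call of Elovl6 in the higher-numbered set ended without any 1 of 9 libraries, all but knockout replicate 6 and wildtype replicates 2 and 5 (adjusted p up to 0.156), and also in edgeR and DESeq2.

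**Figure D4:**
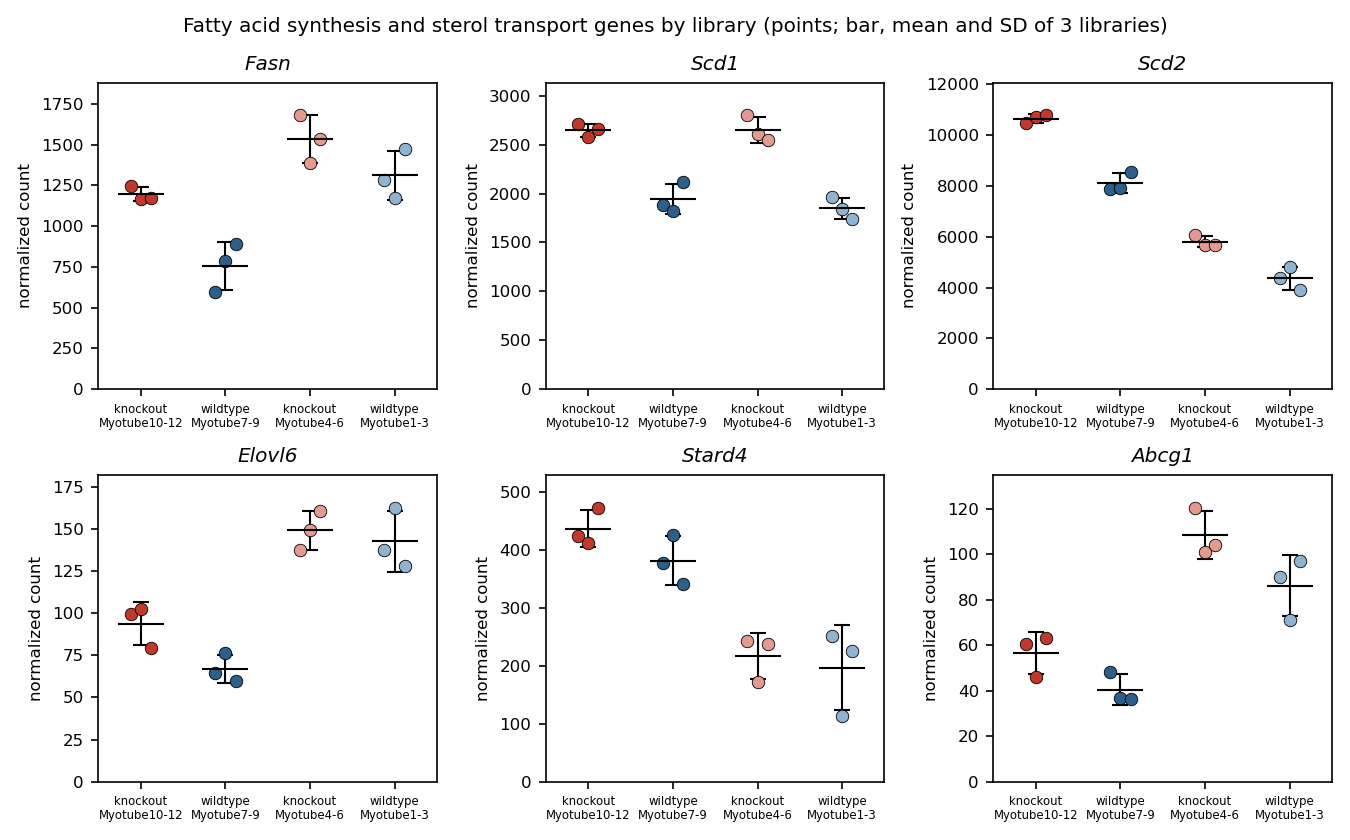
Normalized counts (y axis) of 4 fatty acid synthesis genes and 2 sterol transport genes in the 4 runs of 3 libraries, points for libraries, bars for mean and SD. Scd1 separates the labels, Scd2 the labels and the number sets, and Elovl6, Stard4 and Abcg1 mainly the number sets.

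The number sets were also compared within each label, where the labels give both sets the same genotype and oxygen. In knockout libraries 4 members rose and 3 fell in Myotube10 to Myotube12 relative to Myotube4 to Myotube6, against 11.2% and 7.89% of all tested genes. The sets did not overlap for 6 higher and 12 lower members (19.9% of all genes higher and 19.9% lower). In wildtype libraries 4 rose and 5 fell in Myotube7 to Myotube9 relative to Myotube1 to Myotube3, against 9.79% and 6.96%. There the sets did not overlap for 6 higher and 9 lower members (17.6% and 16.3% of all genes). On the scaling of the deposited counts, the summed count of the sterol enzymes was lower in the higher-numbered set. It was 0.92 times that of the lower-numbered set in knockout and 0.91 times in wildtype libraries. Scd2, Stard4 and Sqle rose in both labels, and Abcg1 and Elovl6 fell in both.

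Scd2 rose by 0.88 on the log2 scale (SE 0.07, adjusted p = 2.34e-06) in knockout and by 0.90 (SE 0.07, adjusted p = 2.17e-06) in wildtype libraries. Per kilobase of exon, the ratio of Scd2 to Scd1 reads was 3.46, 3.73 and 3.63 in knockout replicates 4 to 6 against 1.94, 1.96 and 2.00 in knockout replicates 1 to 3. In wildtype it was 3.74, 3.89 and 3.62 in replicates 4 to 6 against 1.99, 2.34 and 2.01 in replicates 1 to 3. The ratio thus separated the number sets and not the labels.

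Stard4 had 425, 412 and 473 normalized counts in knockout replicates 4 to 6 against 243, 172 and 238 in knockout replicates 1 to 3. In wildtype libraries it had 378, 426 and 341 in replicates 4 to 6 against 251.8, 113 and 225 in replicates 1 to 3. The sets did not overlap in either label, and the log2 differences were 1.02 (SE 0.24, adjusted p = 0.00982) in knockout and 1.03 (SE 0.24, adjusted p = 0.0107) in wildtype libraries. Abcg1 moved the other way, with 60.4, 46.2 and 62.9 in knockout replicates 4 to 6 against 120, 101 and 104 in knockout replicates 1 to 3, and with 48.2, 36.8 and 36.4 in wildtype replicates 4 to 6 against 89.8, 71.2 and 97.2 in wildtype replicates 1 to 3. The log2 differences of Abcg1 were -0.93 (SE 0.19, adjusted p = 0.00342) in knockout and -1.07 (SE 0.19, adjusted p = 0.0015) in wildtype libraries.

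Elovl6 had 138, 149 and 161 normalized counts in knockout replicates 1 to 3, against 137, 163 and 128 in wildtype replicates 1 to 3, all above the values of the higher-numbered set given above. Its log2 differences were -0.67 (SE 0.15, adjusted p = 0.00719) in knockout and -1.08 (SE 0.15, adjusted p = 0.000268) in wildtype libraries. Sqle rose by 0.66 (SE 0.10, adjusted p = 0.000487) in knockout and by 0.40 (SE 0.10, adjusted p = 0.0158) in wildtype libraries. The wildtype call of Sqle ended without wildtype replicate 6 (adjusted p = 0.0761).

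The remaining calls held in 1 label only on the scaling of the deposited counts. Whether the labels differ in them was covered by the test of the difference above, which no member passed. In knockout libraries Insig2 rose by 0.81 (SE 0.22, adjusted p = 0.0202) and Fdps fell by 0.35 (SE 0.10, adjusted p = 0.0303). In wildtype libraries Npc1 rose by 0.31 (SE 0.09, adjusted p = 0.0391), while Fasn fell by 0.80 (SE 0.13, adjusted p = 0.000845), Acaca fell by 0.37 (SE 0.10, adjusted p = 0.0219) and Hmgcs1 fell by 0.34 (SE 0.06, adjusted p = 0.00153). With the 8 abundant genes left out the wildtype call of Npc1 ended, and 3 of these genes passed in knockout libraries too. Their differences there were -0.44 for Fasn (limma adjusted p = 0.025), -0.34 for Acaca (adjusted p = 0.0252) and -0.19 for Hmgcs1 (adjusted p = 0.0324). The call of Insig2 ended without any 1 of knockout replicates 1, 3 and 6 (adjusted p up to 0.0835). That of Fdps ended without any 1 of knockout replicates 1, 2, 4, 5 and 6 (adjusted p up to 0.133), that of Acaca without any 1 of wildtype replicates 3 to 5 (adjusted p up to 0.0921), and that of Npc1 without any 1 of 8 libraries (knockout replicates 2, 5 and 6 and all wildtype replicates but replicate 2, adjusted p up to 0.151).

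**Figure D5:**
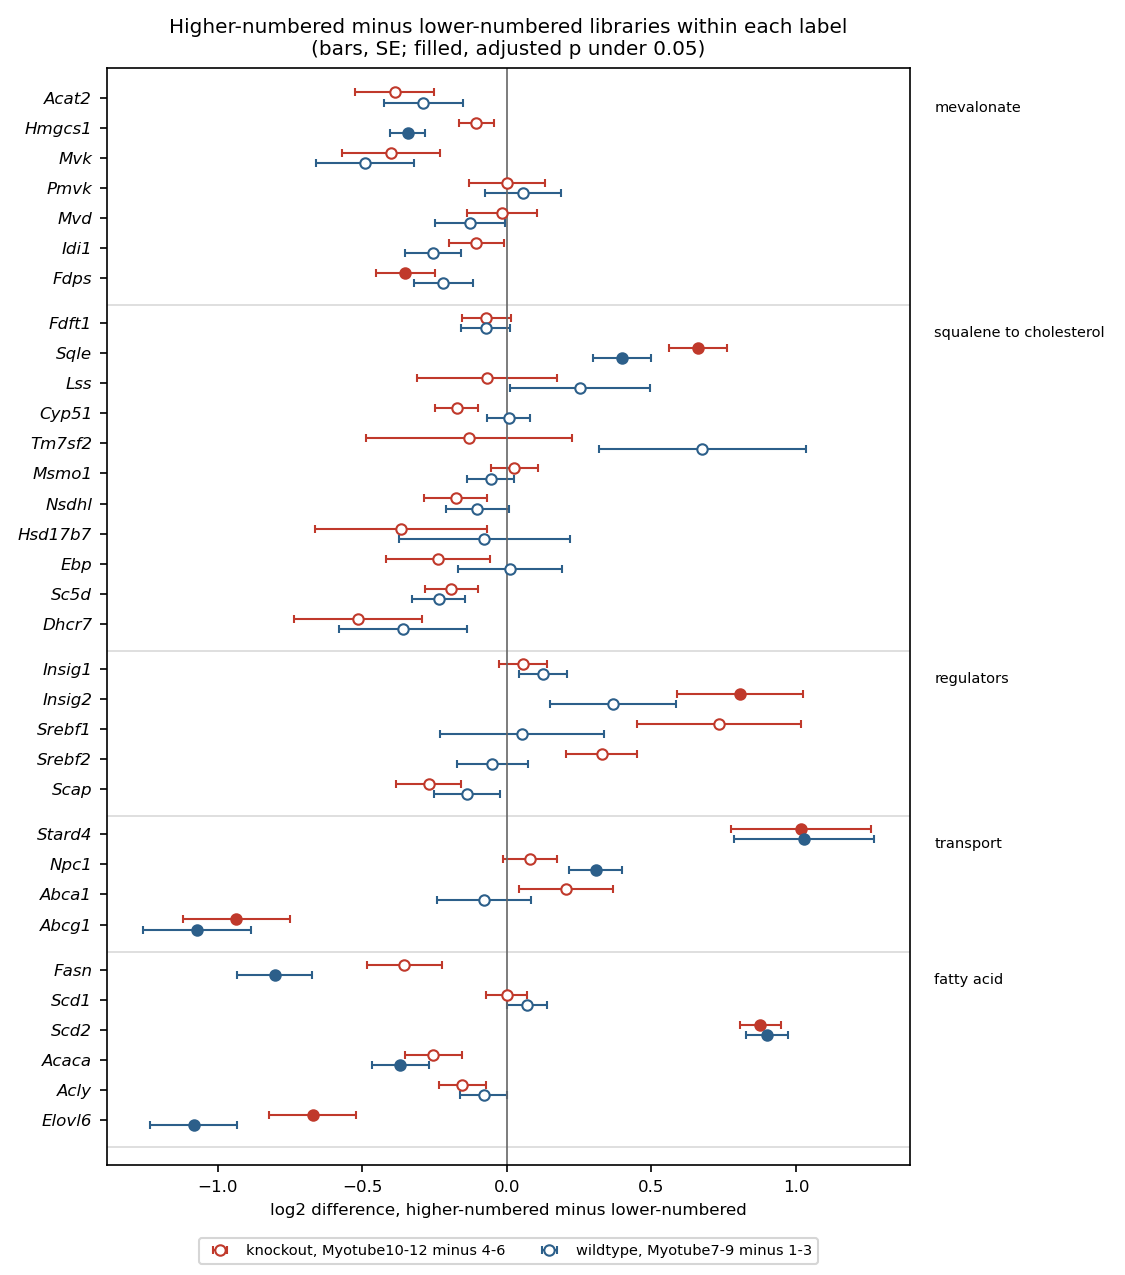
Log2 difference, higher-numbered minus lower-numbered libraries, of the 33 members (x axis) within knockout and within wildtype, 3 libraries against 3 in each. Points are estimates, bars their SE, and filled points passed the test. Scd2 and Stard4 lie near 1 and Abcg1 near -1 in both labels.

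Levels can be compared between genes only per length. The length used was that of all annotated exons of a gene joined, which can exceed that of the transcripts present, so the levels are rough. In reads per kilobase of exon, scaled to the same total in each library, Scd2 averaged 258.7 over the 12 libraries and Scd1 88.8. Insig1 followed with 61.3 and Hmgcs1 with 52.9, and their ranges over libraries overlapped. Cyp51 and Acly averaged 39.4 each, and Fdps 24.2. At the low end were Elovl6 with 3.30, Abcg1 with 1.85 and Tm7sf2 with 1.59. The highest sterol enzyme, Hmgcs1, and the lowest, Tm7sf2, thus belong to the same pathway at very different transcript levels.

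Other genes of lipid synthesis under SREBP control or nearby were described from a list of 17. Over all libraries 3 rose and 2 fell in knockout, beside 10.2% and 9.07% of all tested genes, so the share that fell was near that of all genes. With the 8 abundant genes left out of the scaling 1 rose and 3 fell, and with the number set as a term 6 rose and 4 fell. Tecr, a reductase of fatty acid elongation, had 704 ± 43.6 normalized counts in knockout and 471 ± 42.3 in wildtype libraries (SD, n = 6 each), a log2 difference of 0.58 (SE 0.07, adjusted p = 0.000111). Tmem97, a sterol-responsive membrane protein gene, rose by 0.52 (SE 0.15, adjusted p = 0.0249) and Aacs, which feeds ketone bodies into lipid synthesis, by 0.33 (SE 0.10, adjusted p = 0.0332). Acsl3, an acyl-CoA synthetase gene, had 267 ± 31.1 in knockout and 463 ± 83.8 in wildtype libraries and fell by 0.78 (SE 0.12, adjusted p = 0.000427). Acss2, which makes acetyl-CoA from acetate, fell by 0.36 (SE 0.11, adjusted p = 0.038). Between number sets, the triglyceride synthesis genes Lpin1 and Dgat2 rose in both labels. Lpin1 rose by 1.43 in knockout and 1.23 in wildtype libraries (SE 0.10 each), and Dgat2 by 0.88 in knockout and 1.48 in wildtype libraries (SE 0.17 each).

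Of 10 measured genes that process SREBP or degrade INSIG and sterol enzymes or phosphorylate them, 0 rose and 4 fell over all libraries, beside 10.2% and 9.07% of all tested genes. This list, like the others, was chosen with earlier results of these data known, so its count is no independent comparison. With the 8 abundant genes left out 0 rose and 5 fell. The median of this list was then -0.38 where that of all genes was -0.165, against -0.215 and -0.00147 with them. This scaling shifts every gene by nearly the same amount, so the gap between these medians could hardly change. Prkaa2, a catalytic subunit of AMP-activated kinase, which inhibits acetyl-CoA carboxylase and sterol synthesis by phosphorylation, had 70.9 ± 5.5 normalized counts in knockout and 207 ± 13.2 in wildtype libraries (SD, n = 6 each). The log2 difference was -1.54 (SE 0.09, adjusted p = 1.78e-07). Prkaa1, the other catalytic subunit, fell by 0.30 (SE 0.08, adjusted p = 0.0192). The ubiquitin ligase genes Rnf139 and March6 fell by 0.39 (SE 0.10, adjusted p = 0.0133) and 0.34 (SE 0.09, adjusted p = 0.0145). Of 9 genes of sterol handling and the oxysterol receptors 1 rose and 1 fell, near the shares of all genes. Npc2, the lysosomal partner of NPC1, rose by 0.41 (SE 0.06, adjusted p = 0.00056) and Ch25h, which makes an oxysterol, fell by 0.53 (SE 0.14, adjusted p = 0.0151). Soat1, which esterifies cholesterol, rose in the higher-numbered set by 1.38 in knockout and 1.11 in wildtype libraries (SE 0.14 each).

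Markers of some cell types moved with the labels beside these results. The summed counts of myotube and endothelial markers separated the labels, and the sums of the other cell types overlapped. The summed count of 8 myotube markers was 23339 to 26510 in knockout and 14744 to 18592 in wildtype libraries. Over all libraries 4 of 8 were higher (Acta1, Ckm, Tnnt3 and Mylpf) and 2 lower (Ttn and Myog), beside 10.2% and 9.07% of all tested genes. Of 4 myoblast markers, Myf5 and Msc fell, and the sum was 204 to 265 in knockout and 215 to 379 in wildtype libraries. Cdh15, the most abundant of them, went the other way, at 181 to 230 in knockout and 124 to 198 in wildtype libraries. In the lower-numbered set its labels did not overlap (183 to 230 against 124 to 154). Pax7 lay at 6.2 to 28.6 in knockout and 13.1 to 37.2 in wildtype libraries. Of 4 endothelial markers Pecam1 and Cdh5 rose, with sums of 1130 to 1403 in knockout and 827 to 962 in wildtype libraries. The 6 fibroblast markers summed to 81172 to 112738 in knockout and 83938 to 99012 in wildtype libraries, and Dcn fell. Of 6 adipocyte markers 2 were in the table. Adipoq lay below 1 normalized count in every library, and Fabp4 lay between 111 and 258 in knockout and between 96.2 and 225 in wildtype libraries and was higher in the higher-numbered set. The sum of 4 macrophage markers was 17.5 to 51.5 in knockout and 11.3 to 25.6 in wildtype libraries. The part of these cell types in the differences of the lipid genes was not tested.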

How the data were processed

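RNA from 12 myotube libraries was sequenced from total RNA with a stranded kit, per the labels' protocols. The authors deposited 1 table of normalized counts, a signal made with Trimmomatic 0.33, STAR 2.5.2 on mm10, RSEM 1.3.3 and DESeq2, per the submitters' processing notes. RSEM shares reads that fit several genes by estimate, and its annotation is not stated. Each library's smallest value above 0 was taken as 1 read, which made 100% of values whole within 1e-06 reads. A floor of 3 reads equals 2.12 to 5.85 normalized counts, which covers counting error only.

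Identifiers were named from GENCODE M21 (19953 of 20201). The design assumed this unit. Log2(normalized count + 1) values were fitted with limma 3.58.1, whose prior followed the trend with level. Its two-sided p was adjusted by the Benjamini-Hochberg method over the 12553 genes that averaged at least 10, with a threshold of 0.05. A fold on this scale understates the change of low genes. Comparisons over all libraries used the genotype label alone, and the others came from 1 fit of the 4 runs of 3 libraries. No 2 libraries of a label agreed within sampling noise (smallest chi-square per degree of freedom 5.34).

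Alternatives were pseudocounts of 0.5 and 10, no filter, a minimum mean of 50, quantile normalization, leaving out 8 non-coding, unnamed or Lars2 genes that took at least 1% of reads in a library, library weights, the number set as a term, edgeR 4.0.16 and DESeq2 1.42.0 on recovered whole reads, and fits without each single library. edgeR called 1306 genes higher and 1105 lower over all libraries, and DESeq2 1431 and 1356. The steps were tested on simulated data. All members are named, and from the other lists up to 3 called genes a direction. The members and lists were chosen with earlier results of these data known. R 4.3.3 was used.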

Additional observations from a re-analysis of the deposited data

Results flagged for a closer look

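Among the 6 wildtype libraries the gap of replicate 2 to the nearest other library passed Dixon's limit for Dhcr7 and Insig1. It was also the highest wildtype library for Srebf1, Srebf2 and Hsd17b7, by gaps that did not pass that limit. Dhcr7 had 326.8 normalized counts there, and the other wildtype libraries had 144 to 209. Insig1 had 875 there, below the other wildtype libraries at 1015 to 1070. Chance flags about 1 in 20 such groups, and 66 were looked at. The same library had the fewest reads (6376584) and the largest share of genes at 0 (29.6%), and the part of this in either value was not tested. Without it, the log2 difference of Dhcr7 over all libraries had an adjusted p of 0.0687.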

How the results depend on the processing

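The counts of called members moved with the scaling, with the model and, within sets, with single libraries. Over all libraries 10 members rose and 0 fell. The counts were 3 higher and 2 lower with the 8 abundant genes left out, 7 higher and 1 lower with quantile normalization, 17 higher and 0 lower with library weights, 20 higher and 0 lower with the number set as a term, and 10 to 13 higher and 0 lower with each library left out. In the higher-numbered set (12 higher, 0 lower) quantile normalization gave 6 higher and 1 lower, leaving out the abundant genes 6 higher and 2 lower, library weights 17 higher and 1 lower, and leaving out a library 6 to 17 higher and 0 to 1 lower. The lowest counts came without knockout replicate 4 or wildtype replicate 4 (6 each) and without wildtype replicate 6 (7). In the lower-numbered set (10 higher, 0 lower) quantile normalization gave 6 higher and 0 lower, leaving out the abundant genes 4 higher and 2 lower, library weights 14 higher and 0 lower, DESeq2 9 higher and 1 lower, and leaving out a library 5 to 11 higher (5 without knockout replicate 1) and 0 to 1 lower (1 without wildtype replicate 1).

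Between number sets in knockout libraries (4 higher, 3 lower) quantile normalization gave 4 higher and 6 lower, leaving out the abundant genes 4 higher and 10 lower, library weights 6 higher and 8 lower, DESeq2 4 higher and 5 lower, and leaving out a library 3 to 6 higher and 2 to 7 lower (7 without wildtype replicate 2). In wildtype libraries (4 higher, 5 lower) it was 2 higher and 8 lower without the abundant genes, 3 higher and 7 lower with quantile normalization, 4 higher and 7 lower with library weights, and 2 to 5 higher (2 without wildtype replicate 6) and 4 to 6 lower with a library left out. The difference between knockout effects gave 0 members in every setting run. In the lower-numbered set Hmgcs1 (-0.009754) and Scd2 (-0.03043) changed sign with quantile normalization. The causes were not tested, except that leaving out the abundant genes moved the median of all genes to -0.165 over all libraries, -0.157 in the higher-numbered and -0.173 in the lower-numbered set, and took the share of higher among called genes to 21.8% (613 higher, 2200 lower), against 52.9% (1277 higher, 1139 lower). Single members kept their side of the threshold in 3960 alternative values, passed it in 99, lost it in 124 and changed sign in 2.

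No paired analysis was possible because the replicate numbers only follow accession order. Depth limits the low members most: at 2.12 to 5.85 normalized counts for 3 reads, Tm7sf2 and Abcg1 rest on few reads.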
